A study of Mus musculus with 15 samples.

Results

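The 10 genes described here, Lgr5, Ascl2, Axin2, Sox9, Mki67, Top2a, Pcna, Mcm2, Mcm5 and Ccnb1, mark the stem cells of the intestinal crypt and the cells that divide above them. They were picked by name, with earlier results of these data known, and are 10 of 43626 genes with a value in the deposited tables. RNA of the large intestine of male C57Bl/6 mice aged 4 weeks was sequenced in 15 libraries, in 5 groups of 3. Treatment was by oral gavage on 3 days in a row, in Chremophor EL with 10% DMSO, and the tissue was collected 12 h later. The vehicle group (replicates 2, 4 and 5) is the control. Cymopol, a brominated hydroquinone known from a green alga, was given at 1.4 mmol/kg in the high dose (replicates 11, 12 and 14) and at 0.3 mmol/kg in the low dose (replicates 33, 34 and 35). The algal extract, named non-polar in the labels, had a high dose of 1.0 g/kg (replicates 21, 23 and 25) and a low dose of 0.3 g/kg (replicates 26, 27 and 29). Whether each library is its own mouse is not in the labels, and p-values measure only how far these samples spread, which may be technical.

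The lining of the large intestine is renewed from stem cells at the crypt base, which carry the R-spondin receptor Lgr5 and the transcription factor Ascl2 and depend on Wnt signals from their surroundings. Their daughters divide several times while they move up the crypt and then stop and mature. Dividing cells copy their DNA with the replicative helicase, of which Mcm2 and Mcm5 are subunits, and the sliding clamp Pcna. They then make Top2a, which untangles DNA, the chromosome surface protein Mki67 and the mitotic cyclin Ccnb1. In RNA of whole tissue, fewer cells of a type and less RNA per cell cannot be told apart.

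Cell cycle genes are known to be switched by short promoter elements. The cell cycle genes homology region (CHR, letters TTTGAA) serves genes of late phases, E2F sites (letters TTTGGCG or TTTCGCG) serve genes of DNA replication, and CCAAT boxes are bound by NF-Y. Given here are the 250 bases before the start of 4 of the genes, from the RefSeq promoter table on GRCm38.p6, each written 5′ to 3′ along its own gene. They are shown because they hold the CHR or the E2F letters, while the orders of their group levels differed, with Top2a highest and Mcm2 lowest in low-dose cymopol. Capitals mark CHR, E2F and CCAAT letters on either strand. Mki67 lies at chr7:135716380-135716629, Top2a at chr11:99024190-99024439 and Mcm2 at chr6:88898781-88899030, all on the minus strand, and Mcm5 at chr8:75109259-75109508 on the plus strand.
Mki67: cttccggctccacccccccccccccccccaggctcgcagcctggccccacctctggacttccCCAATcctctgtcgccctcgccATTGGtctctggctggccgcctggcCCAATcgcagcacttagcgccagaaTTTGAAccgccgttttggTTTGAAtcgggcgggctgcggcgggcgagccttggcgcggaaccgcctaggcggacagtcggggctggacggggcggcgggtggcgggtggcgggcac
Top2a: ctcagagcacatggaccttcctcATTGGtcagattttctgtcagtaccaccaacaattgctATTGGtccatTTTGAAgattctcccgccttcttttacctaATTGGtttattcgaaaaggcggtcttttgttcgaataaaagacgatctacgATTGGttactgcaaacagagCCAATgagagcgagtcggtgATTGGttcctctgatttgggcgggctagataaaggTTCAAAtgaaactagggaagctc
Mcm2: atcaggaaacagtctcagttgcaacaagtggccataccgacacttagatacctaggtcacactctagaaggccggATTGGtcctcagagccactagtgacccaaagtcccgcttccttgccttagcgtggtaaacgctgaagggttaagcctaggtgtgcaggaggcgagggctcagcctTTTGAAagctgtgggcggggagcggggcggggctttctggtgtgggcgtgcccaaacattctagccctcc
Mcm5: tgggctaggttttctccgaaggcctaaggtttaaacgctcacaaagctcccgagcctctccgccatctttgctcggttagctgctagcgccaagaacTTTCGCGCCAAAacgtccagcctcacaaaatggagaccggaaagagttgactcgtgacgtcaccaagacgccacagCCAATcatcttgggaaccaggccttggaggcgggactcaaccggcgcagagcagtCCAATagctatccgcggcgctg

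Promoters were matched for 8 of the 10 genes, all but Lgr5 and Sox9, and searched on both strands over 300 bases, 250 before and 50 after the start. CHR letters stood in 3 of the 8, against 17.9% of 32851 promoters of the same length. They began at -116 and -98 in Mki67, at -179 and -23 in Top2a and at -70 in Mcm2, counted from the start. E2F letters stood in 1 of the 8, Mcm5, against 2.37% of all promoters. Its 2 matches, at -153 and -148 on opposite strands, overlap in a single run. CCAAT letters stood in all 8, against 37.4%. The letters ATCAAAG of the TCF/LEF factors, which carry Wnt signals to the DNA, stood in 0 of the 8, against 3.73%, which says only that these letters are not in these windows. A match of letters is a description, not a bound site.

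Levels are in FPKM, which divides a gene's fragments by its length and by the size of the library. For the 74 values from loci assembled in each library the length used is not given. Levels of different genes can thus be set side by side only roughly. The estimated depth was low and uneven, with 25233 to 556449 fragments in protein-coding genes per library, estimated from the width of each value's deposited interval. The vehicle had 51766, 226553 and 25233 (replicates 2, 4 and 5), the high dose libraries 174904 to 556449 and the low dose libraries 28513 to 183362. Depth thus went in part with the groups. In vehicle replicate 2, 46.8% of the estimated fragments were intergenic and 8.52% were given to genes. Of the 150 values of the 10 genes, 43 were listed at 0, and 24 of the other 107 came with an estimate under 0.5 fragments. Estimates that low cannot be counts of reads. A low estimate is thus given as a wide interval, which may hold more than counting error, and library totals may be too low. The deposited interval excluded 0 for 54 values. Epithelial markers such as Epcam and Krt8 were present in all libraries, 9 to 11 of 11 above 0, with a summed level of 1295 to 1869 FPKM in high-dose cymopol, 333 to 1585 in low-dose cymopol, 874 to 1584 in high-dose extract, 67.5 to 871 in low-dose extract and 74.5 to 871 in the vehicle. B cell and germinal centre markers summed to 511.7 FPKM in vehicle replicate 4, with 10 of 11 above 0, and to at most 32.6 in every other library. T cell markers summed to 49.2 FPKM there, with 4 of 7 above 0, and to at most 6.96 elsewhere. Adipocyte markers summed to 6.81, 382 and 11.2 FPKM in the vehicle, with 2 to 7 of 7 above 0, to 310, 278 and 136 in high-dose cymopol, and to between 6.25 and 285 in the other groups. All 7 were higher than in the vehicle in high-dose cymopol, with a median log2 difference of 2.02. All 11 epithelial markers were higher there too, with a median of 2.18. Of all genes tested 79.5% were higher there, with a median of 0.81. Smooth muscle markers were 7 of 7 above 0 in every library. They summed to 65.6, 871 and 295 FPKM in the vehicle, to between 454 and 1024 in high-dose cymopol and to between 34.1 and 767 elsewhere. All 7 were higher than in the vehicle in each group but low-dose extract, where 3 were. Of all genes tested 58.9% were higher in low-dose cymopol, 77.0% in high-dose extract and 41.8% in low-dose extract. Markers of the large intestine, 4 to 8 of 9 above 0, summed to between 51.4 and 2008 FPKM. Dividing lymphocytes also use the cell cycle genes. The part of epithelial content, of these other cells and of depth in the results below was not tested.

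Listing at 0 was counted in each library first. In the vehicle, 2, 6 and 7 of the 10 genes were listed at 0 (replicates 2, 4 and 5), and in low-dose extract 6, 2 and 5. In low-dose cymopol the counts were 4, 4 and 0. The high doses had fewer, 1, 0 and 2 with cymopol and 3, 0 and 1 with the extract. The genes tested as a whole varied too: between 27.1% and 51.2% of 11496 genes were listed at 0 in the vehicle libraries, between 13.5% and 56.4% in low-dose extract, between 9.86% and 50.5% in low-dose cymopol, and between 5.74% and 13.1% in the 6 high dose libraries. A value of 0 is therefore given as a listing and not as absence of the transcript.

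**Figure D1:**
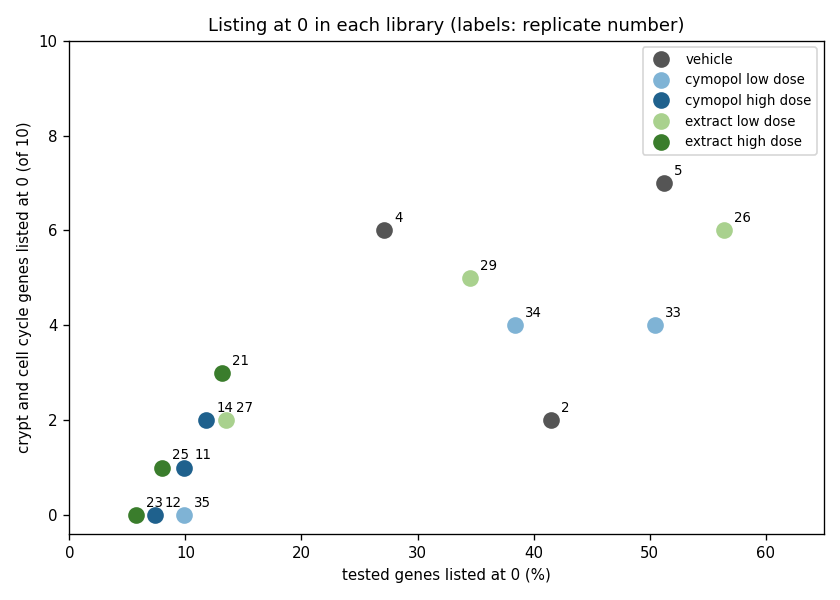
Crypt and cell cycle genes listed at 0 (vertical axis, of 10) against the percentage of all genes tested that were listed at 0 (horizontal axis), 1 point for each of the 15 libraries, coloured by group and labelled by replicate. The 6 high dose libraries sit at the lower left, at 5.74% to 13.1%, and vehicle replicates 4 and 5 and low-dose extract replicate 26 have the most of the 10 genes at 0.

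Lgr5 (ENSMUSG00000020140, chromosome 10, 115450311 to 115587780 on GRCm38), the R-spondin receptor of crypt base stem cells, reached 1 FPKM in 3 libraries. It had 1.85, 0 and 0 FPKM in the vehicle, 0.784, 0.921 and 0.382 in high-dose cymopol and 0, 8.68 and 0.644 in low-dose cymopol. In high-dose extract it had 0, 1.26 and 0.0930 FPKM and in low-dose extract 0, 0.280 and 0. A single library, low-dose cymopol replicate 34, stood above the others, and every group overlapped with the vehicle. The estimate for Lgr5 was at most 1.55 fragments in any library, and no interval excluded 0. In the order of group means, low-dose cymopol was highest at 3.11 ± 4.84 FPKM (SD, n = 3) and low-dose extract lowest at 0.0932 ± 0.161, and no neighbours in that order differed by more than their SD.

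Ascl2 (ENSMUSG00000009248, chromosome 7, 142966829 to 142969264), the transcription factor of the Lgr5 cells, was above 0 in 4 libraries. These were high-dose extract replicates 23 and 25 at 0.199 and 1.36 FPKM, high-dose cymopol replicate 12 at 0.673 and low-dose cymopol replicate 35 at 0.913. The vehicle and low-dose extract were listed at 0 throughout. Ascl2 did not reach the filter of at least 1 FPKM in at least 3 libraries and is outside the fit. An exact two-sided permutation test gave p = 0.4 for high-dose extract against the vehicle and p = 1 for either dose of cymopol, where 3 against 3 cannot go below 0.1.

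Axin2 (ENSMUSG00000000142, chromosome 11, 108920349 to 108950783), a feedback inhibitor that Wnt signals induce, had the highest mean level of the 10 on the log scale, at percentile 70.6 of the genes tested. Its level was 2.37, 16.4 and 17.5 FPKM in high-dose cymopol, against 1.81, 6.69 and 0.965 in the vehicle. Low-dose cymopol had 2.06, 2.22 and 4.43 FPKM, high-dose extract 0, 4.38 and 13.9 and low-dose extract 0.0561, 4.25 and 7.49. Replicates 12 and 14 of high-dose cymopol and high-dose extract replicate 25 were the highest, and every group overlapped with the vehicle. The log2 difference of high-dose cymopol from the vehicle was 1.56 ± 1.13 (SE, n = 3 each), with an adjusted p of 0.542 in limma. Annotated identifiers gave no value of Axin2 in any library, so all 15 came from loci assembled in each library.

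Sox9 (ENSMUSG00000000567, chromosome 11, 112782224 to 112787760), a transcription factor of stem and progenitor cells, was listed at 0 in 2 vehicle libraries and in no other. It had 0.361, 0 and 0 FPKM in the vehicle, against 1.29, 9.03 and 1.58 in high-dose cymopol and 0.715, 2.09 and 1.93 in low-dose cymopol. High-dose extract had 2.32, 1.59 and 1.42 FPKM and low-dose extract 0.214, 1.80 and 0.776. Both doses of cymopol and the high dose of the extract lay above all vehicle libraries, and low-dose extract overlapped with them. In the order of means low-dose extract (0.928 ± 0.802 FPKM, SD, n = 3) exceeded the vehicle (0.120 ± 0.208) by a gap just above the larger SD, and no other neighbours did. Against the vehicle the log2 difference was 1.82 ± 0.817 (SE, n = 3 each) for high-dose cymopol, at an unadjusted limma p of 0.0329 and an adjusted p of 0.348. It was 1.31 ± 0.817 for high-dose extract and 1.17 ± 0.817 for low-dose cymopol (SE, adjusted limma p of 0.527 and 0.926). Vehicle replicates 4 and 5, the libraries with 6 and 7 of the 10 genes at 0, hold the 2 listings of Sox9 at 0.

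**Figure D2:**
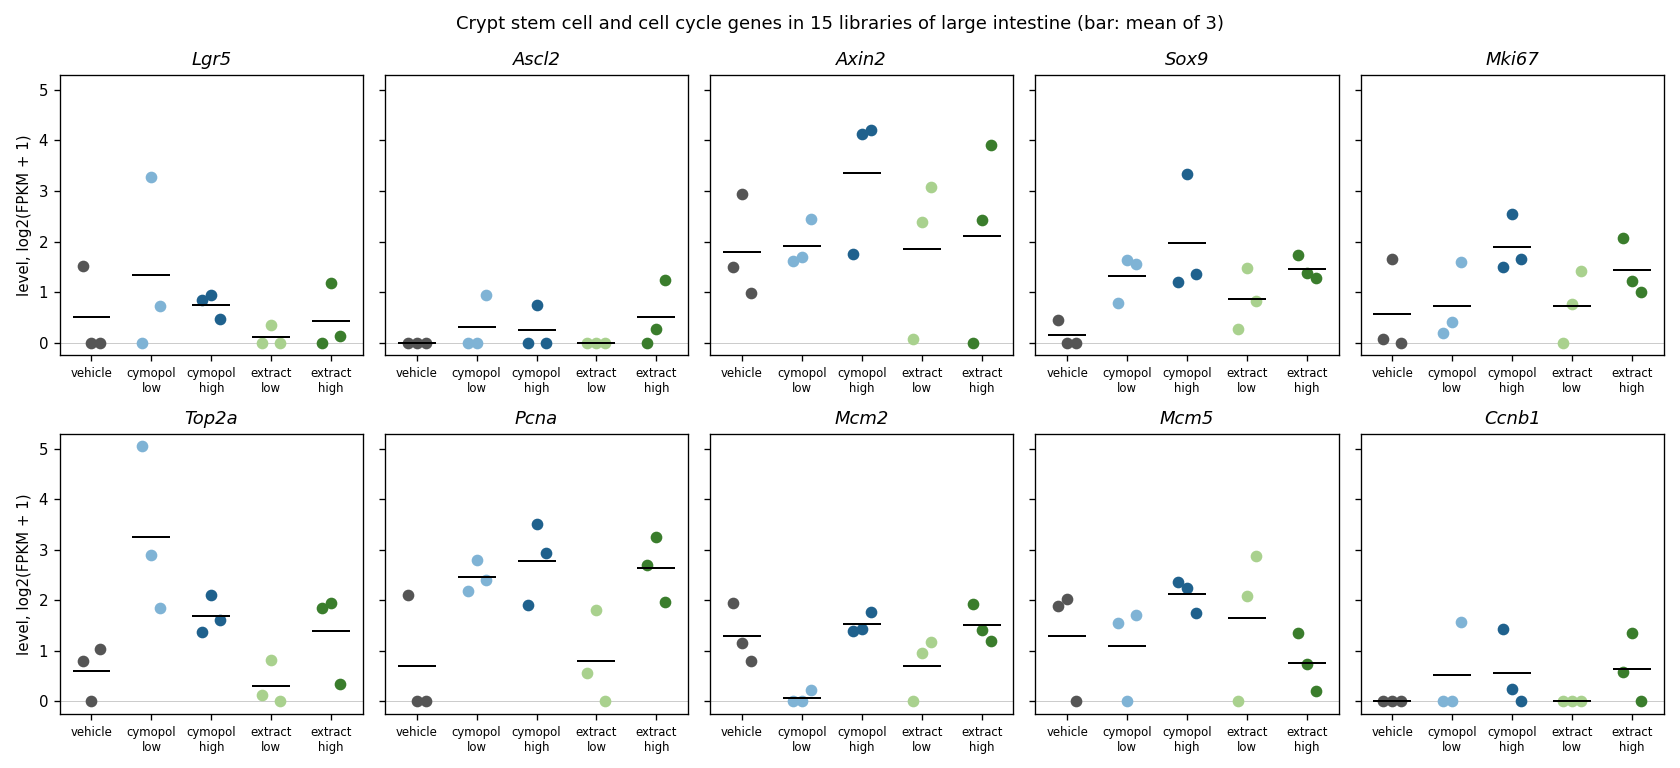
Level of each of the 10 genes as log2(FPKM + 1) (vertical axis) in the 5 groups (horizontal axis), 1 point per library and a bar for the mean of 3. Sox9 lies above the vehicle in both cymopol doses and high-dose extract, Mcm2 is near 0 in low-dose cymopol, and Top2a is highest there.

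Pcna (ENSMUSG00000027342, chromosome 2, 132249162 to 132253314), the sliding clamp of DNA polymerases, had a higher listed level than Mcm2 and Mcm5, at percentile 61.4 of the genes tested, with 13 values from assembled loci. It had 3.30, 0 and 0 FPKM in the vehicle, 2.74, 10.3 and 6.64 in high-dose cymopol and 3.55, 5.95 and 4.30 in low-dose cymopol. High-dose extract had 5.48, 8.49 and 2.91 FPKM and low-dose extract 0.479, 2.52 and 0. Only low-dose cymopol lay wholly above the vehicle among the 4 treated groups, since high-dose cymopol replicate 11 and high-dose extract replicate 25 were below vehicle replicate 2. That separation was 3.55 against 3.30 FPKM at its closest, and no interval in low-dose cymopol excluded 0. High-dose extract lay wholly above low-dose extract. The log2 difference from the vehicle was 2.08 ± 0.988 (SE, n = 3 each) in high-dose cymopol, at an unadjusted limma p of 0.0428 and an adjusted p of 0.363. It was 1.94 ± 0.988 in high-dose extract and 1.76 ± 0.988 in low-dose cymopol (SE, adjusted limma p of 0.448 and 0.872). In low-dose extract it was 0.09 ± 0.988. Low-dose cymopol and the vehicle are neighbours in the order of means, at 4.60 ± 1.23 and 1.10 ± 1.91 FPKM (SD, n = 3 each), with a gap above the larger SD.

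Mcm2 (ENSMUSG00000002870, chromosome 6, 88883474 to 88898780), a subunit of the replicative helicase, was lowest in low-dose cymopol. Its level there was 0, 0 and 0.172 FPKM, against 2.85, 1.22 and 0.743 in the vehicle. High-dose cymopol had 1.64, 1.70 and 2.39 FPKM, high-dose extract 2.79, 1.66 and 1.28 and low-dose extract 0, 0.949 and 1.24. Low-dose cymopol lay wholly below the vehicle and below high-dose cymopol. High-dose extract lay wholly above low-dose extract, by 1.28 against 1.24 FPKM at its closest. The separation of low-dose cymopol from the vehicle was closest between low-dose cymopol replicate 35 and vehicle replicate 5, at 0.172 against 0.743 FPKM. Each of these values had an estimate of 1.00 fragments and an interval that reached 0. Vehicle replicates 2 and 4 had values from assembled loci, and all of low-dose cymopol came by annotated identifier. The part of this in the difference was not tested. Low-dose cymopol differed from the vehicle by -1.22 ± 0.746 on the log2 scale (SE, n = 3 each, adjusted limma p of 0.896), and high-dose cymopol from the low dose by 1.45 ± 0.746 (unadjusted p of 0.0595, adjusted limma p of 0.862). The 2 listings at 0 came from replicates 33 and 34, in which 50.5% and 38.4% of all genes tested were listed at 0.

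Mcm5 (ENSMUSG00000005410, chromosome 8, 75109569 to 75128439), another subunit of that helicase, had another order of group means than Mcm2. No neighbours in the order of Mcm5 differed by more than the larger SD. It had 2.70, 3.05 and 0 FPKM in the vehicle, 4.16, 3.72 and 2.38 in high-dose cymopol and 1.93, 0 and 2.27 in low-dose cymopol. High-dose extract had 1.56, 0.662 and 0.152 FPKM and low-dose extract 0, 3.24 and 6.29. High-dose cymopol lay wholly above low-dose cymopol, by 2.38 against 2.27 FPKM at its closest, and every group overlapped with the vehicle. High-dose extract had the lowest group mean, 0.791 ± 0.712 FPKM (SD, n = 3), and differed from the vehicle by -0.54 ± 0.937 on the log2 scale (SE, adjusted limma p of 0.836). Of the rest of the helicase, Mcm6, which lies outside the rule for named genes, was listed at 0 in all vehicle libraries. It had 0.536, 3.26 and 1.67 FPKM in high-dose cymopol. Mcm7 had the smallest p in low-dose extract of the DNA replication genes described below. It was listed at 0 in all low-dose extract libraries and had 0, 23.4 and 7.61 FPKM in the vehicle. Its log2 difference there was -2.57 ± 1.00 (SE, unadjusted limma p of 0.0146). With gaps within the SD, and values of Mcm6 and Mcm7 given in part, a common order of groups among the subunits can be neither shown nor denied.

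Mki67 (ENSMUSG00000031004, chromosome 7, 135689784 to 135716361), the Ki-67 protein of dividing cells, had the highest estimate of fragments of the 10 genes, up to 170 in a library. It had 1.82, 4.86 and 2.15 FPKM in high-dose cymopol and 3.19, 1.33 and 1.00 in high-dose extract, against 0.0565, 2.13 and 0 in the vehicle. Low-dose cymopol had 0.135, 0.320 and 2.03 FPKM and low-dose extract 0, 0.703 and 1.66. High-dose cymopol replicate 12 and high-dose extract replicates 21 and 25 had values from assembled loci, among them the 4.86 and 3.19 FPKM. Every other library had its value by annotated identifier. The part of this in the differences was not tested. Vehicle replicate 4 stood with the high dose libraries and the other 2 vehicle libraries near 0, so that every group overlapped with the vehicle. That replicate is the library in which B cell and germinal centre markers summed to 511.7 FPKM. The log2 difference from the vehicle was 1.33 ± 0.803 in high-dose cymopol, 0.86 ± 0.803 in high-dose extract and 0.15 ± 0.803 in each low dose (SE, n = 3 each). The adjusted limma p was 0.465, 0.680, 1 and 1 in that order. Neighbours in the order of means did not differ beyond their SD.

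Top2a (ENSMUSG00000020914, chromosome 11, 98992943 to 99024189), the topoisomerase of dividing cells, was highest in low-dose cymopol. Its level there was 32.0, 6.41 and 2.59 FPKM, against 0.731, 0 and 1.06 in the vehicle. High-dose cymopol had 1.60, 3.32 and 2.05 FPKM, high-dose extract 2.62, 2.85 and 0.278 and low-dose extract 0.0881, 0.765 and 0. Both doses of cymopol lay wholly above the vehicle, and the extract groups overlapped with it. The log2 difference of low-dose cymopol was 2.65 ± 0.937 (SE, n = 3 each), at an unadjusted limma p of 0.00773 and an adjusted p of 0.746. That of high-dose cymopol was 1.09 ± 0.937 (SE, adjusted limma p of 0.603). These levels have wide intervals. All 15 values came from assembled loci, and 10 of the 13 above 0 had an estimate under 0.5 fragments, which is too low to be a count of reads. The interval excluded 0 in 1 library, low-dose cymopol replicate 33, with an estimated 4.12 fragments.

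Ccnb1 (ENSMUSG00000041431, chromosome 13, 100778650 to 100786570), the cyclin that starts mitosis, was listed at 0 in 10 libraries, among them all of the vehicle and of low-dose extract. It had 1.69, 0.188 and 0 FPKM in high-dose cymopol, 0, 0 and 1.97 in low-dose cymopol and 0.498, 1.55 and 0 in high-dose extract. The estimate was at most 2.29 fragments in any library, and no interval excluded 0. Every treated group overlapped with the vehicle at 0. All 10 listings at 0 came by annotated identifier, and all 5 values above 0 came from assembled loci. Being above 0 thus went with the kind of value in every library, and the part of this in the group differences was not tested. The log2 difference from the vehicle was 0.64 ± 0.527 in high-dose extract, 0.56 ± 0.527 in high-dose cymopol and 0.52 ± 0.527 in low-dose cymopol (SE, n = 3 each, adjusted limma p of 0.631, 0.635 and 0.954). Over the 10 genes, 40 pairs of neighbours stand in the orders of group means, and 3 of them had a gap above the larger SD, those of Sox9 and Pcna given above and low-dose extract over low-dose cymopol for Mcm2.

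The comparison of high-dose cymopol with the vehicle asks whether the compound changes these genes in the intestine. All 9 genes tested had a higher mean than in the vehicle, with log2 differences from 0.23 (Mcm2) to 2.08 (Pcna). Of all genes tested, 79.5% also had a higher mean, and the median difference was 1.09 over the 9 and 0.81 over all genes. After median-of-ratios scaling, which brought the median of all genes to 0.24, 6 of the 9 were higher and Lgr5, Mcm2 and Mcm5 lower, and after quantile normalization 4 were higher and 5 lower. Of all genes, 60.2% and 48.2% were then higher. In limma 0 of the 9 were called, where 0.0174% of all genes were (2 genes), and voom called 0. An unadjusted p under 0.05 was reached by 2, Sox9 and Pcna, where 12.5% of all genes passed as higher and 0.757% as lower. Without overlap of the groups there were also 2, Sox9 and Top2a, where 19.5% of all genes were wholly higher and 0.365% wholly lower. These shares are near those over all genes.

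In low-dose cymopol against the vehicle 7 of the 9 genes had a higher mean and Mcm2 and Mcm5 a lower one. The median was 0.52 over the 9 and 0.23 over all genes, of which 58.9% were higher. Without replicate 35 the median was 0.00, without replicate 34 0.33 and without replicate 33 0.78. Median-of-ratios scaling left 5 higher, with Lgr5 and Axin2 turning lower, where 49.1% of all genes were higher. In limma 0 of the 9 were called, where 0.0% of all genes were, and 0 in voom. Top2a passed an unadjusted p under 0.05, where 3.89% of all genes did so as higher and 1.79% as lower. The groups did not overlap for Sox9, Top2a and Pcna as higher, where 3.89% of all genes were wholly higher, and for Mcm2 as lower, where 0.835% were wholly lower. Of these 4 genes, Top2a has the wide intervals given above, and Mcm2 has listings at 0 in low-dose cymopol. The closest values of Mcm2, in low-dose cymopol replicate 35 and vehicle replicate 5, had estimates of 1.00 fragments each. For Sox9 and Pcna, 2 of the vehicle values were listings at 0. No interval of Pcna in low-dose cymopol excluded 0, and its lowest value there was 3.55 FPKM, against 3.30 in vehicle replicate 2.

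**Figure D3:**
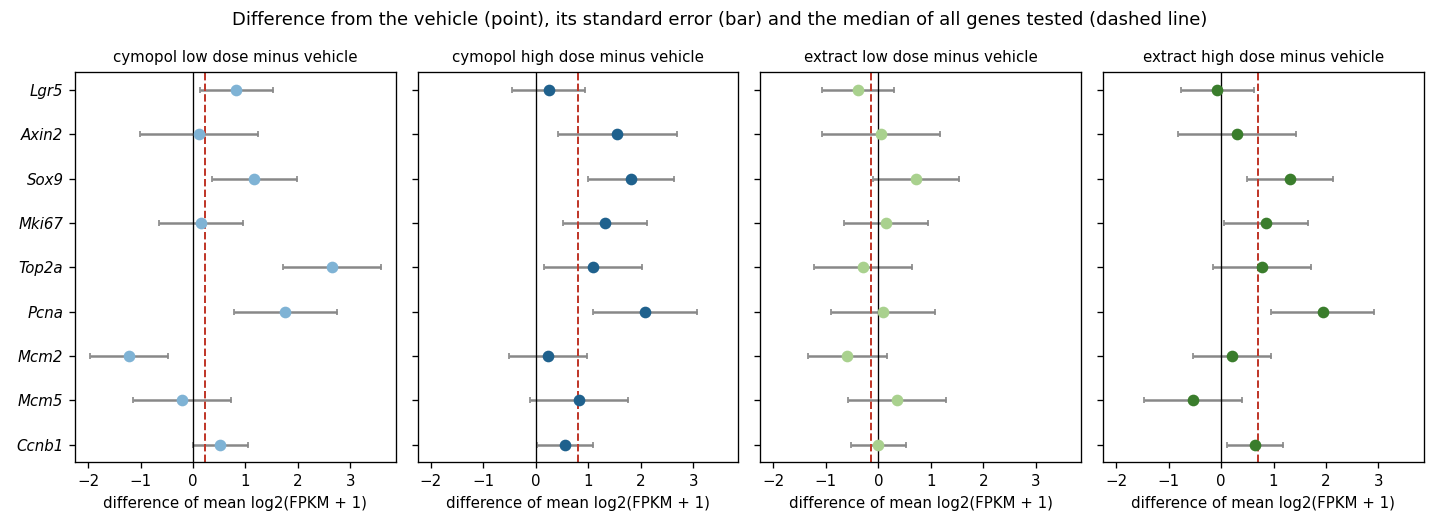
Difference of mean log2(FPKM + 1) from the vehicle (horizontal axis) for the 9 genes tested (vertical axis) in the 4 treated groups, with its standard error as a bar and the median of all genes tested as a dashed line. Points in the high dose panels lie on both sides of a dashed line that is itself at 0.81 and 0.71, and Top2a at 2.65 and Mcm2 at -1.22 stand furthest apart in low-dose cymopol.

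In high-dose extract against the vehicle 7 of the 9 genes had a higher mean, and Mcm5 and Lgr5 a lower one. Their median was 0.64, against 0.71 over all genes, of which 77.0% were higher. Without replicate 23 the median was 0.29, and without replicate 25 0.97. Median-of-ratios scaling left 4 higher and 5 lower and quantile normalization 1 higher, Pcna, and 8 lower. Of all genes, 60.3% and 47.7% were then higher. In limma 0 were called, where 0.0087% of all genes were (1 gene), 0 in voom and 0 at an unadjusted p under 0.05, where 10.6% of all genes passed as higher and 1.02% as lower. Sox9 alone lay wholly above the vehicle, where 19.3% of all genes did and 0.452% lay wholly below.

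In low-dose extract the 9 genes stood closest to the vehicle. The mean was higher for 5, lower for Lgr5, Top2a and Mcm2 and the same for Ccnb1, which was listed at 0 throughout. The median was 0.05, against -0.14 over all genes, of which 41.8% were higher, and the largest difference was 0.72 ± 0.817 for Sox9 (SE, n = 3 each, adjusted limma p of 1). In limma 0 were called, where 0.0% of all genes were, 0 in voom and 0 at an unadjusted p under 0.05, where 1.11% of all genes passed as higher and 2.8% as lower. None of the 9 lay apart from the vehicle in either direction, where 1.23% of all genes were wholly higher and 1.44% wholly lower. Median-of-ratios scaling turned Axin2 and Mcm5 lower. Without vehicle replicate 5 the median over the 9 was -0.26, and without replicate 26 it was 0.21.

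Between the doses of cymopol, 7 of the 9 genes had a higher mean in the high dose, and Lgr5 and Top2a a lower one. The largest difference was that of Top2a, -1.56 ± 0.937 on the log2 scale (SE, n = 3 each, unadjusted p of 0.105, adjusted limma p of 0.874). The median was 0.65 over the 9 and 0.60 over all genes, of which 76.8% were higher. Without replicate 12 the median over the 9 was 0.19 and without replicate 33 0.38. In limma 0 were called, where 0.0087% of all genes were (1 gene), 0 in voom and 0 at an unadjusted p under 0.05, where 5.35% of all genes passed as higher and 0.487% as lower. Mcm2 and Mcm5 lay wholly above the low dose, where 9.75% of all genes did and 0.818% lay wholly below. Between the doses of the extract, 8 had a higher mean in the high dose and Mcm5 a lower one (-0.89 ± 0.937, SE, n = 3 each, adjusted limma p of 0.683). The median was 0.64 over the 9, against 0.89 over all genes, of which 88.0% were higher. Without replicate 26 the median over the 9 was 0.34. In limma 0 were called, where 0.0087% of all genes were (1 gene), 0 in voom and 0 at an unadjusted p under 0.05, where 7.09% of all genes passed as higher and 0.191% as lower. Pcna and Mcm2 lay wholly above, where 20.9% of all genes did and 0.087% lay wholly below. Quantile normalization turned Sox9, Pcna and Ccnb1 lower between the doses of cymopol, and Lgr5, Axin2, Sox9, Top2a and Ccnb1 lower between those of the extract.

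Whether a dose difference is another with cymopol than with the extract was tested as an interaction in the same limma fit. The largest was that of Top2a, -2.63 on the log2 scale, at an unadjusted p of 0.0550 and an adjusted p of 1.00, and 0 of the 9 were called. At an unadjusted p under 0.05 there were also 0.

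The crypt list of 24 stem cell and Wnt target genes, which holds 4 of the 10 genes, had 18 genes tested. In high-dose cymopol 15 were higher and 3 lower than in the vehicle, with a median of 1.02, against 0.81 over all genes. Median-of-ratios scaling left 12 higher, quantile normalization 9 and voom 10, where 60.2%, 48.2% and 44.1% of all genes were higher. In limma 0 were called, voom called 0, and 5 of the 18 passed an unadjusted p under 0.05 as higher and 0 as lower, where 12.5% and 0.757% of all genes did. Lrig1, a brake on growth factor receptors that marks crypt progenitors, had 10.1, 11.5 and 2.30 FPKM in high-dose cymopol and 4.76, 22.4 and 4.76 in high-dose extract, against 0.0716, 0.340 and 0 in the vehicle. It lay wholly above the vehicle in both and in low-dose cymopol (2.70, 12.2 and 5.69 FPKM), with log2 differences of 2.77 ± 1.16, 3.02 ± 1.16 and 2.61 ± 1.16 (SE, adjusted limma p of 0.323, 0.357 and 0.846). Smoc2, a matrix protein of the stem cells, was listed at 0 in the vehicle and had 1.46, 4.36 and 2.03 FPKM in high-dose cymopol (adjusted limma p of 0.318). Ephb2, a receptor that keeps cells in the lower crypt, had 21.4, 9.43 and 3.71 FPKM in high-dose extract against 0.0852, 2.12 and 0.740 (adjusted limma p of 0.382). Myc, a growth regulator under Wnt control, was listed at 0 in low-dose cymopol and had 2.27, 5.16 and 1.08 FPKM in high-dose cymopol (adjusted limma p of 0.822).

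The other comparisons of that list had smaller medians. In high-dose extract 13 of 18 were higher than in the vehicle (median 0.75, against 0.71 over all genes), in low-dose cymopol 12 (0.69, against 0.23) and in low-dose extract 11 (0.26, against -0.14). Over those 3 scalings the counts were 9 to 11, 8 to 10 and 8 to 11, where 45.5% to 60.3%, 46.1% to 49.1% and 42.3% to 48.9% of all genes were higher. In limma and voom 0 were called in each. An unadjusted p under 0.05 was reached in high-dose extract by 5 as higher (10.6% of all genes), in low-dose cymopol by 2 as higher (3.89%) and 1 as lower (1.79%), and in low-dose extract by 2 as lower (2.8%). Znrf3, which removes Wnt receptors from the cell surface, passed that unadjusted p as lower in both low doses. It had 190 FPKM in vehicle replicate 4, and 0.878 and 0 in the other 2 vehicle libraries. Tcf7, a Wnt transcription factor also known from T cells, was listed at 0 in low-dose extract and had 0, 11.0 and 3.28 FPKM in the vehicle.

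The list of 20 Wnt ligands, R-spondins, receptors and other signals of the crypt surroundings had 16 genes tested. Against the vehicle, 12 were higher in each high dose, 11 in low-dose cymopol and 4 in low-dose extract. The medians were 0.88 and 0.83 in the high doses of cymopol and the extract, 0.11 in low-dose cymopol and -0.28 in low-dose extract. Under the same 3 scalings 8 to 9 were higher in high-dose cymopol, 7 to 10 in high-dose extract, 6 to 8 in low-dose cymopol and 6 to 10 in low-dose extract, so that no direction held. The shares of all genes higher under these scalings are those given for the crypt list. In limma and voom 0 were called in any of the 6 comparisons, and 0 passed an unadjusted p under 0.05, where for example 12.5% of all genes did as higher in high-dose cymopol. Fzd7, a Wnt receptor, lay wholly below the vehicle in low-dose extract, with 0.199, 0.705 and 0.494 FPKM against 2.07, 6.26 and 4.73 (log2 difference -1.80 ± 0.922, SE, unadjusted p of 0.0595, adjusted limma p of 1). Gsk3b, a kinase that marks beta-catenin for decay, lay wholly above the vehicle in both high doses (adjusted limma p of 0.503 with cymopol and 0.536 with the extract). Rspo1, a ligand of the Lgr receptors, had 0, 17.9 and 6.22 FPKM in low-dose cymopol against 0.999, 0 and 0 (adjusted limma p of 0.872).

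Of 36 genes of DNA replication, which include Pcna, Mcm2 and Mcm5, 20 were tested. In high-dose cymopol 17 were higher and 3 lower than in the vehicle (median 0.69, against 0.81 over all genes), and in low-dose cymopol 7 were higher and 13 lower (median -0.36, against 0.23). The 3 scalings left 12, 9 and 4 higher in high-dose cymopol, and 4, 4 and 5 in low-dose cymopol, where the list stayed mostly lower. Of all genes, 60.2%, 48.2% and 44.1% were then higher in high-dose cymopol, and 49.1%, 48.9% and 46.1% in low-dose cymopol. Between the doses of cymopol all 20 had a higher mean in the high dose, as 76.8% of all genes did, with a median of 1.06 against 0.60 over all genes. That count was 18 after median-of-ratios scaling and 15 after quantile normalization, and voom on estimated fragments gave 9 higher and 11 lower. Of all genes, 63.6%, 49.0% and 44.4% were then higher. There 0 were called in limma and voom, and 4 of the 20 passed an unadjusted p under 0.05 as higher, where 5.35% of all genes did. Slbp, which binds histone mRNA in S phase, had 4.89, 6.11 and 6.76 FPKM in high-dose cymopol and 8.65, 9.38 and 5.48 in high-dose extract. It had 0.538, 0 and 0 in the vehicle, 0, 0 and 0.703 in low-dose cymopol and 0, 1.69 and 0 in low-dose extract, so that both high doses lay wholly above the other 3 groups. Its log2 difference from the vehicle was 2.57 with cymopol and 2.91 with the extract (adjusted limma p of 0.258 and 0.268). Tyms, which makes thymidylate, was listed at 0 in the vehicle and had 3.46, 3.61 and 5.23 FPKM in high-dose cymopol (adjusted limma p of 0.272). Mcm10, a replication starter, was listed at 0 in low-dose cymopol and had 2.27, 2.41 and 2.44 FPKM in the high dose (adjusted limma p of 0.822).

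For the extract, the same list had 13 of 20 higher in the high dose than in the vehicle (median 0.45, against 0.71 over all genes) and 8 higher in the low dose (median -0.19, against -0.14). Between the doses 16 were higher in the high dose (median 0.83, against 0.89). The 3 scalings left 5 to 11, 5 to 8 and 7 to 14 higher in that order. Of all genes, 45.5% to 60.3%, 42.3% to 48.9% and 48.2% to 66.4% were then higher. In limma and voom 0 were called in each. An unadjusted p under 0.05 was reached by 4 as higher in the high dose (10.6% of all genes) and by 3 as higher between the doses (7.09%). In the low dose 1 gene, Mcm7, reached it as lower (2.8%). Gmnn, an inhibitor of repeated replication, was listed at 0 in low-dose extract, and of the vehicle libraries replicate 4 alone was above 0, at 18.2 FPKM.

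Of 38 genes of mitosis, which include Mki67, Top2a and Ccnb1, 31 were tested. In high-dose cymopol 27 were higher and 4 lower than in the vehicle, with a median of 1.00 against 0.81 over all genes. The count was 24 after median-of-ratios scaling, 15 after quantile normalization and 13 by voom, where 60.2%, 48.2% and 44.1% of all genes were higher. Calls were 0 in limma and voom, and 8 of the 31 passed an unadjusted p under 0.05, all higher, where 12.5% of all genes passed as higher. For 11 of the 31 high-dose cymopol lay wholly above the vehicle, where 19.5% of all genes did. H2afz, a histone variant, had 13.0, 22.8 and 16.5 FPKM there, 14.7, 34.2 and 10.9 in high-dose extract and 6.12, 22.6 and 18.1 in low-dose cymopol, against 1.32, 0 and 0 in the vehicle. All 3 of these groups lay wholly above the vehicle, with log2 differences of 3.76, 3.82 and 3.48 (adjusted limma p of 0.220, 0.268 and 0.589). In low-dose extract it had 0.555, 13.1 and 10.0 FPKM and overlapped. Cdk1, the kinase partner of Ccnb1, was listed at 0 in the vehicle and had 0.857, 6.80 and 1.62 FPKM in high-dose cymopol (adjusted limma p of 0.272). Aurkb, a kinase of chromosome segregation, was listed at 0 in the vehicle and had 1.91, 0.851 and 3.80 FPKM in high-dose extract (adjusted limma p of 0.422).

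In the other comparisons with the vehicle, 23 mitosis genes were higher in high-dose extract (median 0.58, against 0.71 over all genes), 17 in low-dose cymopol (0.14, against 0.23) and 13 in low-dose extract (0.00, against -0.14). The 3 scalings left 8 to 20, 11 to 15 and 10 to 14 higher in that order. Of all genes, 45.5% to 60.3%, 46.1% to 49.1% and 42.3% to 48.9% were then higher. In limma and voom 0 were called in each. An unadjusted p under 0.05 was reached by 2 as higher in high-dose extract (10.6% of all genes), by 3 as higher in low-dose cymopol (3.89%) and by 0 in low-dose extract (1.11% higher and 2.8% lower). Bub1b, a checkpoint kinase, had 0, 7.79 and 5.53 FPKM in the vehicle and at most 0.572 in low-dose extract (adjusted limma p of 1).

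**Figure D4:**
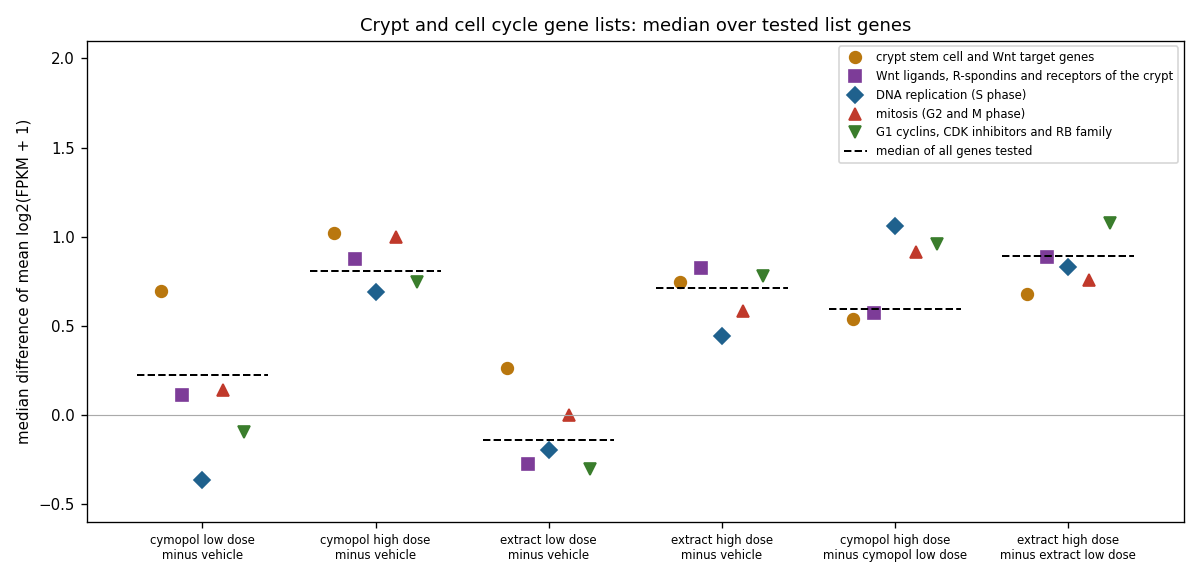
Median difference of mean log2(FPKM + 1) (vertical axis) over the tested genes of the 5 crypt and cell cycle lists in the 6 comparisons (horizontal axis), with the median of all genes tested as a dashed line. The DNA replication list is lowest in low-dose cymopol, at -0.36, and above the dashed line between the doses of cymopol, at 1.06 against 0.60, where voom gives -0.29.

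Of 19 G1 cyclins, inhibitors of cyclin-dependent kinases and members of the RB family, which hold cells before replication or let them pass, 17 were tested. In high-dose cymopol 15 were higher than in the vehicle (median 0.75, against 0.81 over all genes), in high-dose extract 13 (0.78, against 0.71), in low-dose cymopol 8 (-0.09, against 0.23) and in low-dose extract 6 (-0.30, against -0.14). The 3 scalings left 6 to 9, 7 to 8, 5 to 6 and 7 higher in that order. Of all genes, 44.1% to 60.2%, 45.5% to 60.3%, 46.1% to 49.1% and 42.3% to 48.9% were then higher. In limma and voom 0 were called in any of the 6 comparisons, and at an unadjusted p under 0.05 there were 1, 1, 0 and 0 in that order, the first and second as higher, where 12.5% and 10.6% of all genes were. Cdkn2c, an inhibitor of Cdk4 and Cdk6, was listed at 0 in the vehicle and had 3.16, 3.51 and 2.06 FPKM in high-dose extract (adjusted limma p of 0.399). Cdkn2b, another inhibitor, had 7.14, 16.0 and 41.7 FPKM in high-dose cymopol and 7.33, 27.4 and 18.05 in high-dose extract, against 0.565, 3.02 and 7.37, and overlapped with the vehicle in both (adjusted limma p of 0.412 and 0.489). Lin54, a subunit of the complex that binds the CHR, had 5.74, 3.67 and 1.99 FPKM in high-dose cymopol against 0, 0.477 and 0.827 (adjusted limma p of 0.360). Foxm1, which drives mitotic genes, had 64.2 FPKM in vehicle replicate 4 and 0.0648 and 0 in the other 2 vehicle libraries.

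The counts also depend on vehicle replicate 4, the library rich in B cell markers. Without it 8 of the 9 genes were higher in high-dose cymopol and Lgr5 stood at -0.0075, the DNA replication list had 18 higher of 20 and the mitosis list 29 of 31. Of all genes 86.8% were then higher, and the medians were 1.201 and 1.17 for the 2 lists and 1.199 over all genes. In low-dose cymopol the DNA replication list then had 12 higher and 8 lower, where all 3 vehicle libraries gave 7 and 13, and its median turned to 0.17, with 0.60 over all genes, of which 73.3% were higher. With vehicle replicate 4 as the only vehicle library, after leaving out the 3 with the most intergenic signal, over 20% (vehicle replicates 2 and 5 and low-dose extract replicate 26), limma called 0 of the 9 genes but 1 or more genes of the lists, all lower than in the vehicle. Znrf3 and Foxm1 were called in all 4 treated groups, Gmnn in both low doses, and Rnf43, Pole, Hmmr and Cdk4 in low-dose cymopol. None of the Wnt ligand list was called. Over all genes the calls were then 163 in high-dose cymopol, 350 in low-dose cymopol, 206 in high-dose extract and 252 in low-dose extract. The lone vehicle library is assumed there to vary like the other groups. The part of the B cells in these calls was not tested.

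The genes most like Mki67 and Lgr5 were found by Pearson correlation of log2(FPKM + 1), each library centred on its mean, over the 15 libraries and as a description only, since the libraries share depth and composition. For Mki67 they were Otud3 (r = 0.897), Psme1 (0.813) and Brd3 (0.812). Without the 2 libraries farthest from the median these were 0.924, 0.693 and 0.772. For Lgr5 they were Dclre1a (0.939), Slc5a2 (0.938) and Paip2b (0.923), and these were 0.611, 0.661 and 0.706 without the 2 farthest libraries, on which they rest in part.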

How the data were processed

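Large intestine RNA, 90 ng per library, was depleted of ribosomal RNA and made into low-input libraries, per the labels' protocols. The submitters' processing notes name STAR 2.4.0j and the build GRCm38.p4. The authors deposited FPKM values with a lower and an upper bound per gene and per locus assembled in each library, per the file headers; the sources used here do not name the quantifier.

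A value came from the annotated identifier or, where that had none, from an assembled locus whose span and the gene's shared at least 0.5 of their joint span and matched each other best. Of 150 values, 76 came by identifier and 74 by locus. Names came from GENCODE M21 (37764 of 38189 identifiers). Fragments were estimated from the deposited bounds, with the standard deviation read as counting error. Where the bounds hold more than that error, the estimate falls below the number of reads.

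Differences in log2(FPKM + 1) were fitted with limma 3.58.1 (R 4.3.3, trended variances, two-sided) over all 15 libraries, 5 groups of 3, and 11496 genes with a value in every library and at least 1 FPKM in at least 3. P-values were adjusted by Benjamini-Hochberg over those genes, with calls under 0.05, in 6 comparisons. The fold changes understate those of low genes because of the pseudocount of 1. Ascl2, outside the filter, had an exact permutation test (scipy 1.17.1). Voom, in limma, was run on the estimated fragments with their totals as library sizes. Other alternatives were pseudocount, filter, scaling, sample weights and libraries left out. The limma fit was tested on simulated data for high-dose cymopol against the vehicle. The matching of loci, the fragment estimates and voom were not. The 10 genes and the lists were chosen with earlier results of these data known. Of each list, genes called were to be named, or else up to 2 with the smallest p in each comparison; the 3 genes most correlated with Mki67 and Lgr5 were named too. Counts of 0 mean a listing, not a measured absence.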

Additional observations from a re-analysis of the deposited data

Results flagged for a closer look

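Some loci assembled in treated libraries overlap Axin2 or Top2a but were not matched to either gene, so their values entered no comparison, and 5 of them stood above the vehicle. Over Axin2, such a locus had 31362 FPKM in high-dose cymopol replicate 14, 28707 in high-dose extract replicate 21 and 42354 in low-dose cymopol replicate 34. These 3 loci span 129725, 91059 and 129716 bp and rest on an estimated 2144, 2037 and 1977 fragments. Axin2 itself had 17.5, 0 and 2.22 FPKM in those libraries. Low-dose extract replicate 29 had a short locus over Axin2 at 158 FPKM, 184 bp long, with an estimated 11 fragments. The highest in the vehicle over Axin2 was 68.7 FPKM in replicate 2, 146 bp long, with an estimated 8 fragments. Over Top2a, high-dose extract replicate 25 had a locus at 34.8 FPKM, 236 bp long, with an estimated 13 fragments, and the vehicle had none above 0. Whether any of these fragments belong to the 2 genes was not tested.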

How the results depend on the processing

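No paired analysis was possible because no replicate number occurs in more than 1 group. In every alternative run, 0 of the tested crypt and cell cycle genes were called, and the smallest adjusted limma p over all of them was 0.133. Of 837 alternative values of 53 log2 differences, 112 had the other sign, and 21 differences never changed sign. Sox9, Pcna, Mki67 and Axin2 in high-dose cymopol and Top2a, Sox9 and Pcna in low-dose cymopol were among those 21. With annotated identifiers only, 0 of the 10 genes could be tested, and 7 could with at least 1 FPKM in at least 6 libraries. Leaving out 1 library leaves 2 in its group. The cause of the changes below was not tested.

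The count of all genes called was 2 (high-dose cymopol), 0 (low-dose cymopol), 1 (high-dose extract), 0 (low-dose extract), 1 (cymopol doses) and 1 (extract doses), where doses stands for high against low and the rest for a group against the vehicle. With a pseudocount of 0.1 it was 7 (high cymopol), 3 (high extract), 1 (low extract) and 0 (cymopol doses). With no FPKM filter it was 6 (high cymopol), 2 (low cymopol), 6 (high extract), 3 (cymopol doses) and 5 (extract doses). With a filter of at least 1 FPKM in at least 6 libraries it was 7 (high cymopol), 0 (high extract), 0 (cymopol doses) and 0 (extract doses). With median-of-ratios scaling it was 0 (high cymopol), 2 (low cymopol), 3 (high extract), 1 (low extract) and 0 (cymopol doses). With annotated identifiers only it was 0 (high cymopol) and 0 (cymopol doses). With voom on estimated fragments it was 121 (high cymopol), 140 (high extract), 4 (cymopol doses) and 2 (extract doses). With only the 2 groups compared it was 0 (high cymopol), 0 (high extract), 0 (cymopol doses) and 0 (extract doses). With 3 intergenic-rich libraries left out it was 163 (high cymopol), 350 (low cymopol), 206 (high extract), 252 (low extract) and 0 (cymopol doses). With quantile normalization it was 2 (low cymopol), 2 (high extract) and 0 (cymopol doses). With array weights it was 0 (cymopol doses) and 13 (extract doses). Without 1 library at a time, the counts ranged from 0 to 8 (high cymopol), 0 to 9 (low cymopol), 1 to 8 (high extract), 0 to 8 (low extract), 0 to 3 (cymopol doses) and 1 to 1 (extract doses). The highest count in the comparisons of high cymopol, low cymopol and high extract came without vehicle replicate 2, and that of low extract without vehicle replicate 5.

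Log2 differences of the crypt and cell cycle genes changed sign as follows. Median-of-ratios scaling gave Lgr5 -0.78, Mcm2 -0.84 and Mcm5 -0.34 (high cymopol), Lgr5 -0.20 and Axin2 -0.43 (low cymopol), Axin2 -0.47, Top2a -0.13 and Mcm2 -0.75 (high extract). It also gave Axin2 -0.24 and Mcm5 -0.37 (low extract), Axin2 -0.23 and Sox9 -0.30 (extract doses), Pcna -0.23 (cymopol doses). Quantile normalization gave Lgr5 -1.02, Top2a -0.49, Mcm2 -1.25, Mcm5 -0.45 and Ccnb1 -0.061 (high cymopol), Lgr5 -0.15 and Axin2 -0.35 (low cymopol), Lgr5 -0.28, Axin2 -0.71, Sox9 -0.81, Top2a -0.25 and Ccnb1 -0.016 (extract doses). It also gave Axin2 -0.60, Sox9 -0.0081, Mki67 -0.042, Top2a -0.64, Mcm2 -1.17 and Ccnb1 -0.093 (high extract), Sox9 -0.15, Pcna -0.28 and Ccnb1 -0.25 (cymopol doses), Mki67 -0.058 and Mcm5 -0.11 (low extract). Voom on estimated fragments gave Lgr5 -2.73, Top2a -1.86, Mcm2 -0.43, Mcm5 -0.074 and Ccnb1 -1.77 (high cymopol), Lgr5 -0.22, Axin2 -0.65 and Ccnb1 -0.053 (low cymopol), Lgr5 -1.76, Axin2 -0.46, Sox9 -1.02, Top2a -1.63 and Ccnb1 -1.49 (extract doses). It also gave Axin2 -0.54, Top2a -1.78, Mcm2 -0.35 and Ccnb1 -1.62 (high extract), Axin2 -0.080, Pcna -0.49 and Mcm5 -0.24 (low extract), Ccnb1 -1.71 (cymopol doses). A pseudocount of 0.1 gave Lgr5 0.14 and Axin2 -0.38 (high extract), Axin2 -0.47 (low extract). Leaving out the 3 intergenic-rich libraries gave Lgr5 0.43, Axin2 -0.83 and Mki67 -0.22 (high extract), Lgr5 0.18, Axin2 -0.20, Mki67 -0.56 and Top2a 0.41 (low extract). It also gave Axin2 -1.03 and Mki67 -0.92 (low cymopol), Axin2 -0.63 (extract doses). Array weights gave Mcm5 0.095 (low cymopol). Without 1 library at a time, the genes that changed sign ranged over Lgr5 -0.0075 to 0.75 and Mcm2 -0.017 to 0.55 (high cymopol), Lgr5 -0.14 to 1.49, Axin2 -0.30 to 0.68, Mki67 -0.28 to 0.69 and Mcm5 -0.86 to 0.33 (low cymopol), Lgr5 -0.44 to 0.43, Axin2 -0.59 to 1.36 and Mcm2 -0.039 to 0.53 (high extract). The others ranged over Lgr5 -0.64 to 0.12, Axin2 -0.57 to 0.94, Mki67 -0.19 to 0.69, Pcna -0.42 to 0.79 and Mcm5 -0.30 to 1.17 (low extract), Lgr5 -1.25 to 0.39, Sox9 -0.036 to 1.03, Pcna -0.045 to 0.76 and Ccnb1 -0.40 to 0.56 (cymopol doses), Lgr5 -0.054 to 0.53 and Axin2 -0.64 to 1.31 (extract doses). The median over the tested genes of the 10 ranged over 0.88 to 1.25 (high cymopol), 0.00 to 0.78 (low cymopol), 0.29 to 0.97 (high extract), -0.26 to 0.21 (low extract), 0.19 to 0.94 (cymopol doses) and 0.34 to 0.92 (extract doses). Median-of-ratios scaling moved the median of all genes in high-dose cymopol from 0.81 to 0.24. Lgr5, Ascl2, Ccnb1 and Top2a had the lowest top estimates, no more than 4.12 fragments in any library. The part of depth in this was not tested.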
